A study of Mus musculus with 6 samples.

Results

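Intermediate filaments are the third fibre system of the cytoskeleton beside actin and microtubules, and the genes examined here encode 7 cytoplasmic members of this family (Vim, Des, Nes, Synm, Krt8, Krt18 and Krt19) and the 3 lamin genes of the nucleus (Lmna, Lmnb1 and Lmnb2). They were picked by gene symbol, and all 10 were found among the 18112 genes of the deposited expression table. RNA came from primary vascular smooth muscle cells (VSMCs), freed by enzymatic digestion from the aorta of young adult C57BL/6 mice and then cultured. Both groups carry a Smyd2 allele with loxP sites around an exon on both chromosomes, and no agent was given to either. The control, Smyd2 fl/fl, has this allele alone, and the knockout, Smyd2 SMC-/-, has in addition a Cre transgene driven by the Tagln (SM22α) promoter, which removes the exon of this lysine methyltransferase in smooth muscle cells and is known to be active in some other cell types as well. The endothelium was stripped and the adventitia removed before the medial cells were cultured. The labels give passage 6 in medium with serum, whereas the study's methods give an earlier passage and overnight starvation. There were 3 libraries per genotype, and neither the labels nor the methods say whether they came from separate animals or cultures, so that p-values measure only the spread between these libraries. The sex of the animals behind each library is not given in the sources used here.

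Values are FPKM, the fragments of a gene scaled to its transcript length and to the size of the library. The depth behind them, estimated from the steps between low values, was about 18000000, 19600000 and 19300000 fragments in control replicates 1, 2 and 3, and about 16800000, 19100000 and 18800000 in those of the knockout. Replicate 1 of each genotype stood apart from the other 2 libraries. On the first principal component, which held 50.2% of the variance, it scored −58.6 in the control and −25.4 in the knockout, against scores of 2.75 to 39.1 for the other 4 libraries, so values for replicates 2 and 3 alone are given where a call changes. The deleted gene was checked first. For Smyd2, FPKM reached 7.87 in replicate 1 of the control, 3.10 in replicate 2 and 3.0 in replicate 3, and in the knockout 1.67, 0.40 and 0.80. Each knockout library was below all control libraries, although the difference of −1.48 on the log2(FPKM + 1) scale (standard error 0.389) had an adjusted p of 0.105 in limma, or 0.0189 once replicate numbers were taken as blocks.

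The cytoplasmic intermediate filaments are tissue-specific. Vimentin and desmin form homopolymers, nestin and synemin need a partner such as vimentin or desmin to assemble, and keratins are obligate pairs of a type I chain (Krt18, Krt19) with a type II chain (Krt8). In the arterial wall, contractile smooth muscle holds vimentin and desmin, and cells that have left the contractile state in culture or after injury are known for high vimentin with little desmin. Lamins line the inner face of the nuclear membrane, where A-type lamins (lamin A and C, both from Lmna) rise with tissue stiffness and B-type lamins (Lmnb1, Lmnb2) are present in nearly all cells.

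Nes and Krt19 were lower in Smyd2 SMC-/- cells, and none of the 10 genes was called higher. Of the 10 genes, 6 had a mean of at least 0.5 FPKM and were tested with limma on log2(FPKM + 1), with Benjamini-Hochberg adjustment over all 12565 tested genes and a call at an adjusted p under 0.05. Of these 6, 2 were called lower and 0 higher, where the test called 1.21% of all tested genes lower and 1.23% higher. Without adjustment, 4 of the 6 were lower and 0 higher at p under 0.05, against 11.2% of all tested genes lower and 9.16% higher. With the replicate block 3 of the 6 were lower, against 5.72% of all tested genes lower and 4.72% higher in that fit. In replicates 2 and 3 alone, 3 of the 6 were called lower (Vim, Nes and Lmnb2), where 17.3% of all tested genes were. In all 6 tested genes each Smyd2 SMC-/- library lay below each Smyd2 fl/fl library, which held for 15% of all tested genes. The median difference of the 6 was −0.52, against −0.02 for all tested genes. Rescaling each library to TPM moved the median of all tested genes by 0.11, to 0.10, and relative to that median the 6 had a median of −0.52, compared with −0.50 relative to the median without rescaling. All differences on this scale understate the change of genes with low FPKM.

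**Figure D1:**
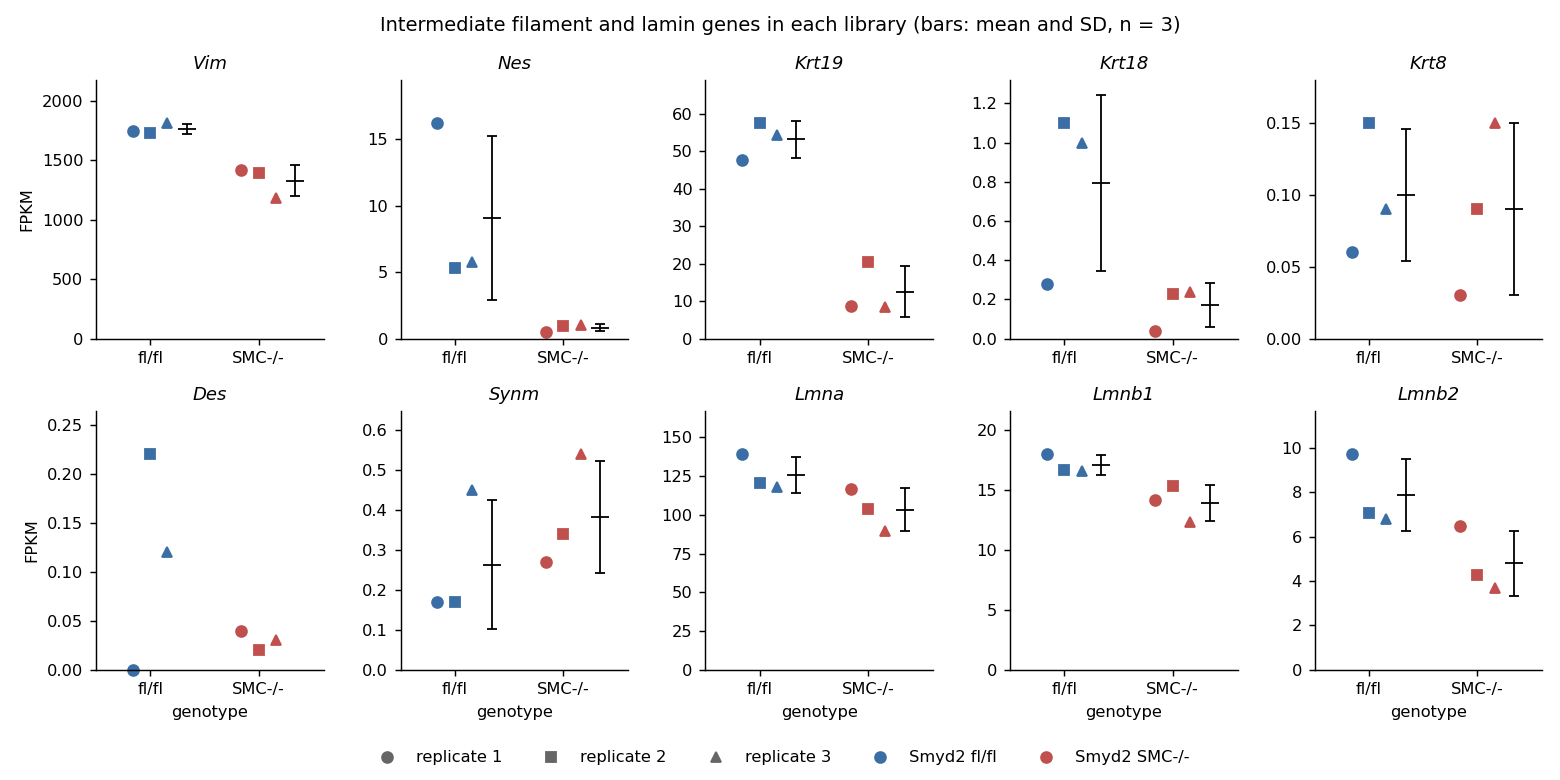
FPKM of the 10 genes in each library, with points by genotype (blue, Smyd2 fl/fl; red, Smyd2 SMC-/-) and marker shape by replicate, and a black bar for the mean and SD of 3 libraries (left out for Des, which is listed at 0 in 1 library). The vertical axes start at 0 and differ between genes, with Vim at 1179 FPKM or more in all 6 libraries and Des, Krt8 and Synm below 0.6 FPKM.

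Vim (NCBI Gene 22352) encodes vimentin, the main filament of mesenchymal cells, and was the most abundant of the 10 genes. Its level was 1745, 1730 and 1813 FPKM in the 3 control libraries and 1416, 1391 and 1179 FPKM in the 3 knockout libraries. The controls were close together, all 3 knockout libraries were below them, and replicate 3 of the knockout was the lowest. By level Vim ranked between 9 and 20 of the 18112 genes in the 6 libraries. The mean was 1763 ± 44.4 FPKM (SD, n = 3) in the control and 1329 ± 131 FPKM (SD, n = 3) in the knockout, or 75.4% of the control. The difference of −0.41 (standard error 0.127, 95% interval −0.72 to −0.11) did not pass limma's test (adjusted p = 0.143). It was −0.12 after quantile normalization, and the adjusted p over all alternatives ran from 0.0447, in replicates 2 and 3 alone, to 0.678.

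The promoters of Vim and Nes are shown because they belong to the most abundant of these filaments and to one that fell. RefSeq promoter windows on GRCm38.p6 were used for 8 of the 10 genes, and none was examined for Krt19 or Lmnb1. The Vim window spans chr2:13574061-13574310 on the plus strand and the Nes window chr3:87970843-87971092 on the plus strand, in each case the 250 bases directly upstream of the annotated start.
Vim: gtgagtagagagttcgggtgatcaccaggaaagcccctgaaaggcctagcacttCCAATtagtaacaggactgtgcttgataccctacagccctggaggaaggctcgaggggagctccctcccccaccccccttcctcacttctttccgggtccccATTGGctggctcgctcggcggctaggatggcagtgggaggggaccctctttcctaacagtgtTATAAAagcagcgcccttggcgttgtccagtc
Nes: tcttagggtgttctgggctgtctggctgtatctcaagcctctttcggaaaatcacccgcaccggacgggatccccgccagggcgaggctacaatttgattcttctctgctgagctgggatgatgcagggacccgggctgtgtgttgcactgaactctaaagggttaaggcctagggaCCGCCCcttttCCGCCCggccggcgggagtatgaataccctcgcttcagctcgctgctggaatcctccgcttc
Capitals mark matches, on either strand, to the 6 motifs searched, none of which overlap one another here. These were TATAAA (the core promoter box), CCAAT (the letters bound by nuclear factor Y), GGGCGG (the element of Sp1), TGANTCA (the AP-1 element), TGACGTCA (the cyclic AMP response element) and the CArG box of serum response factor. The Vim window holds TATAAA at positions −32 to −27 from the start, CCAAT at −196 to −192, and CCAAT on the opposite strand (read as ATTGG) at −94 to −90. The Nes window holds 2 copies of GGGCGG on the opposite strand (read as CCGCCC), at −73 to −68 and −62 to −57, and no TATAAA. Among 32536 mouse promoter windows of the same length, 12.3% hold TATAAA, 33.8% CCAAT, 33.0% GGGCGG, 6.73% TGANTCA, 1.56% TGACGTCA and 1.48% a CArG box. No CArG box was found in the windows of the 8 genes, which says only that these letters are not in these windows.

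Des and Synm, the muscle-type filament genes, were barely measured. Des (NCBI Gene 13346), whose product links the contractile apparatus of muscle cells, was listed at 0, 0.22 and 0.12 FPKM in the controls and at 0.04, 0.02 and 0.03 FPKM in the knockouts. This corresponds to about 13 fragments at most in a library, and the groups overlapped. Synm (NCBI Gene 233335), whose synemin bridges filaments to costameres and dystrophin-linked proteins, was the only one of the 10 genes with a higher mean in the knockout. It read 0.17, 0.17 and 0.45 FPKM in the control and 0.27, 0.34 and 0.54 FPKM in the knockout. The groups overlapped, although Synm was higher in the knockout in all 3 same-numbered pairs, by 0.12, 0.20 and 0.09 on the log2(FPKM + 1) scale. Neither gene reached the mean of 0.5 FPKM needed for the test, and with no filter on low FPKM neither was called (adjusted p = 0.534 for Des and 0.650 for Synm).

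Nes (NCBI Gene 18008) encodes nestin, a large filament protein of progenitor and dividing cells that assembles with vimentin. It stood at 16.2, 5.30 and 5.78 FPKM in the controls and at 0.52, 0.98 and 0.99 FPKM in the knockouts. Replicate 1 was by far the highest of the controls, the 3 knockout libraries were near or below 1 FPKM, and the groups did not overlap. In approximate fragments, the controls held 1778, 630 and 678 and the knockouts 53, 114 and 113. The mean fell from 9.10 ± 6.17 FPKM (SD, n = 3) to 0.83 ± 0.268 FPKM (SD, n = 3), which is 9.12% of the control. Without control replicate 1 the control mean was 5.54 FPKM and the knockout 15.0% of it, and the call was kept (adjusted p = 0.0197). The log2 difference was −2.31 (standard error 0.402, 95% interval −3.27 to −1.35, adjusted p = 0.0437 in limma). The call was lost without any one of control replicate 2 (adjusted p = 0.108), control replicate 3 (0.127), knockout replicate 1 (0.0575), knockout replicate 2 (0.152) or knockout replicate 3 (0.167), and with no filter on low FPKM (0.0670), while replicates 2 and 3 alone gave 0.000163. All 3 knockout libraries were lower than all controls, and a two-sided exact permutation test gave p = 0.1, the smallest p that 3 libraries against 3 allow.

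Krt19 (NCBI Gene 16669) encodes a small type I keratin of simple epithelia and mesothelium, and was the second most abundant of the 7 cytoplasmic genes. The control libraries had 47.8, 57.6 and 54.3 FPKM and the knockout libraries 8.71, 20.5 and 8.53 FPKM. The controls lay close together, replicate 2 was the highest of the knockouts, and even this library was below every control. The mean fell from 53.3 ± 4.99 FPKM (SD, n = 3) to 12.6 ± 6.88 FPKM (SD, n = 3), or 23.6% of the control. The log2 difference was −2.10 (standard error 0.325, 95% interval −2.88 to −1.33), with the smallest adjusted p of the 6 tested genes, 0.0317 in limma. The call was lost without control replicate 1 (adjusted p = 0.0600), control replicate 2 (0.142), control replicate 3 (0.144) or knockout replicate 3 (0.137), with no filter on low FPKM (0.0555) and in replicates 2 and 3 alone (0.0506). In bulk RNA, fewer cells of a type that holds a transcript and less of that transcript per cell cannot be told apart, and this applies to Krt19 and Nes alike.

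The partner keratins were near the limit of measurement. Krt18 (NCBI Gene 16668), the other type I chain, read 0.28, 1.10 and 1.00 FPKM in the controls and 0.04, 0.23 and 0.24 FPKM in the knockouts, or from about 1 to about 30 fragments. The groups did not overlap, but replicate 1 of the control was only just above the highest knockout library, and the mean of all 6 was below the 0.5 FPKM needed for the test. With no filter on low FPKM its adjusted p was 0.245. In replicates 2 and 3 alone it passed the filter only through the controls, so its call there is not counted. Krt8 (NCBI Gene 16691), the type II chain with which Krt18 and Krt19 pair, was between 0.03 and 0.15 FPKM in all 6 libraries, about 1 to 6 fragments each, and the groups overlapped. Its FPKM was thus 384 to 797 times below that of Krt19 in the controls and 56.9 to 290 times below it in the knockouts. Krt8 and Krt18 have processed copies elsewhere in the genome, and reads shared with such copies make these low values uncertain.

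**Figure D2:**
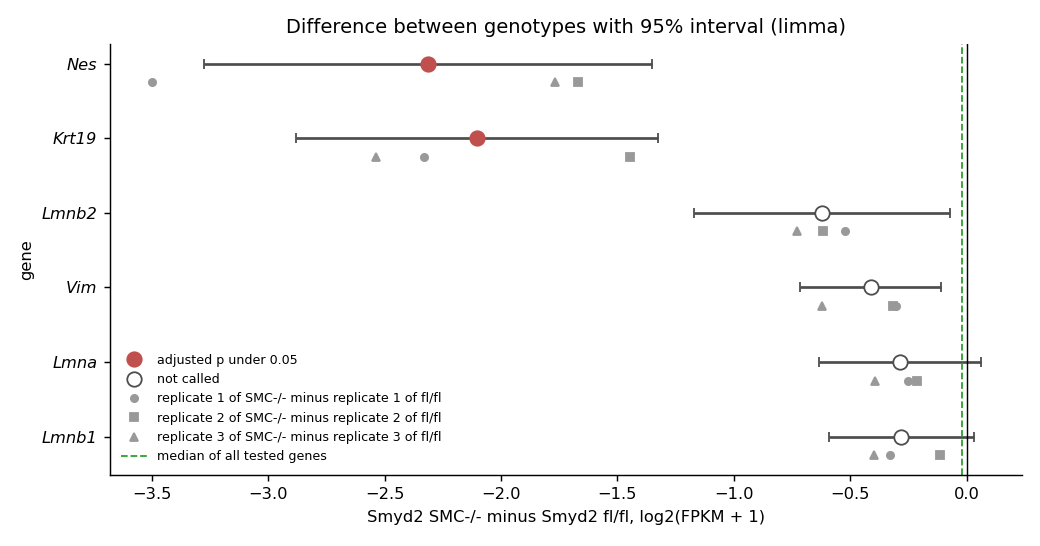
Difference between genotypes on the log2(FPKM + 1) scale for the 6 tested genes, with the limma estimate (large circle, filled where the adjusted p was under 0.05), its 95% interval and the differences between same-numbered replicates (small grey markers). All same-numbered differences are below 0, and only the intervals of Lmna and Lmnb1 reach 0.

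Markers of other cells were read beside Krt19 and Nes. Of 5 mesothelial markers, all 5 were measured and 0 were called in limma (0 also at an unadjusted p under 0.05). With the replicate block 3 were called higher, against 4.72% of all tested genes (Upk3b, Upk1b and Wt1, named after their values were seen). The other 2 had lower means in the knockout, Msln at 16.8 FPKM in the control and 5.92 FPKM in the knockout and Lrrn4 at 31.5 and 14.2 FPKM, and Lrrn4 missed the threshold with the block (adjusted p = 0.0613). The summed level of the 5 was 18.1, 154 and 160 FPKM in the controls and 30.0, 288 and 168 FPKM in the knockouts, with Upk1b the most abundant. The sum was thus lowest in replicate 1 of both genotypes. The groups overlapped, although the sum was higher in the knockout in each same-numbered pair. Without Upk1b it was 14.2, 110 and 113 FPKM in the controls and 19.6, 162 and 94.2 FPKM in the knockouts. The pair of replicate 3 then went the other way. Of 5 epithelial markers, Cdh1 was the only one tested and was not called, while Epcam, Cldn4 and Cldn7 were below 0.5 FPKM in all 6 libraries. Cdh1 read 1.02, 10.7 and 12.4 FPKM in the controls and 0.86, 6.73 and 4.40 FPKM in the knockouts.

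Markers of adventitial fibroblasts, the layer removed in the preparation, had negative differences in all 5 cases, with a median of −1.66. In limma 1 was called lower, 3 were lower if p under 0.05 is taken unadjusted, and 3 were called lower with the replicate block. Of all tested genes 1.21% were lower in limma, 11.2% unadjusted and 5.72% with the block. For 2 of the 5, Pi16 and Ly6a, the groups overlapped. In the other 3 each knockout library was below each control, which held for 15% of all tested genes. Their sum was 287, 606 and 526 FPKM in the controls and 55.2, 174 and 155 FPKM in the knockouts, with Ly6a the most abundant. Dpt, a matrix protein gene of fibroblasts and the one that was called, read 144, 90.3 and 65.5 FPKM in the controls and 3.31, 1.15 and 0.63 FPKM in the knockouts (log2 difference −5.28, standard error 0.427, adjusted p = 0.00417). The sums did not overlap between genotypes, as with Krt19 and Nes, and the part of these cells in the lower Krt19 and Nes was not tested.

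Among 8 smooth muscle markers, 7 were tested, 1 was called lower and 0 higher, with 2 lower and 0 higher if p under 0.05 is taken unadjusted and 1 lower with the replicate block. For all tested genes the shares lower were 1.21% in limma, 11.2% unadjusted and 5.72% with the block. Acta2, the smooth muscle actin gene, was the most abundant and the one called, at 709 ± 45.5 FPKM (SD, n = 3) in the control and 244 ± 37.1 FPKM (SD, n = 3) in the knockout (log2 difference −1.55, standard error 0.153, adjusted p = 0.00803), a call lost without control replicate 2 (adjusted p = 0.0541), control replicate 3 (0.0615) or knockout replicate 3 (0.0531). Myh11, the smooth muscle myosin heavy chain that defines the contractile cell, was between 0.01 and 0.22 FPKM in all 6 libraries. The summed level of the 8 markers was 1017, 894 and 886 FPKM in the controls and 274, 498 and 448 FPKM in the knockouts. Without Acta2 it was 256, 212 and 203 FPKM in the controls and 72.9, 230 and 185 FPKM in the knockouts, with overlapping groups. Of the 7 differences 6 were negative and 1 positive (Lmod1), with a median of −0.92. For 3 of the 7 (Acta2, Myl9 and Actg2) each knockout library was below each control, against 15% of all tested genes. For Myl9 the margin was small, at 70.35 FPKM in knockout replicate 3 and 70.49 FPKM in control replicate 3. The cells labelled smooth muscle thus held much Acta2 and Vim and almost no Myh11 or Des in either genotype.

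**Figure D3:**
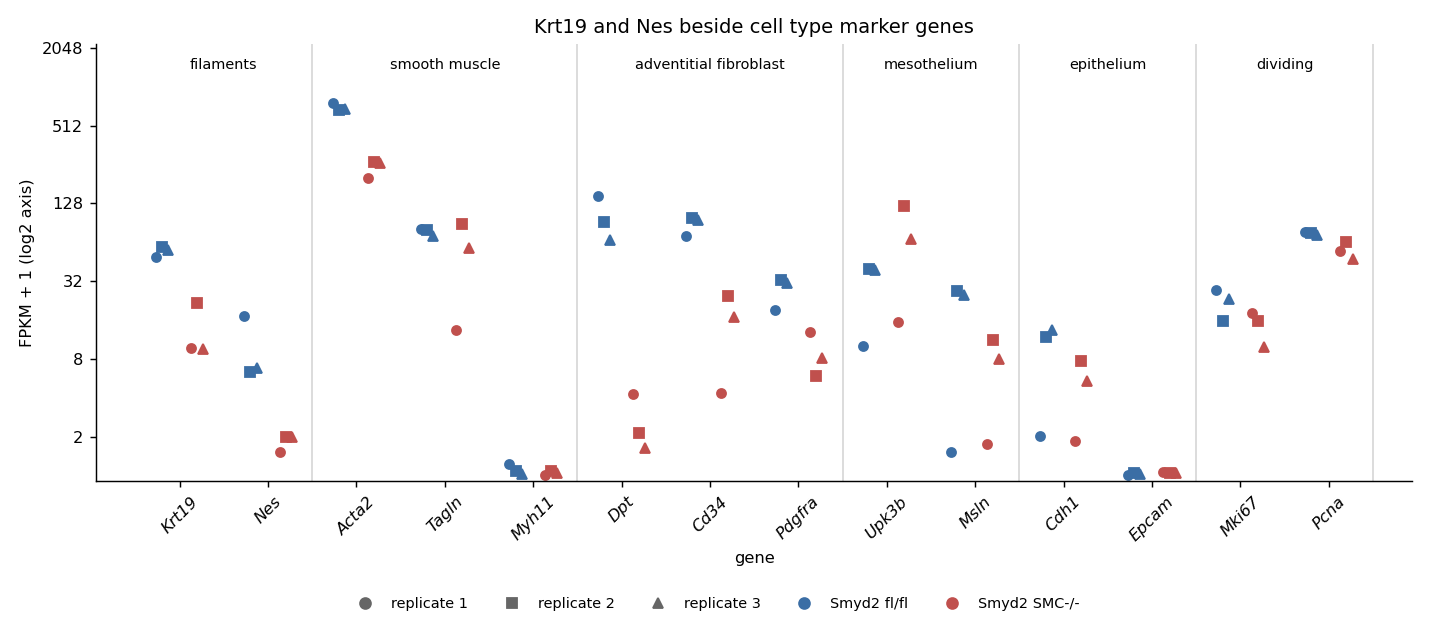
FPKM + 1 on a log2 axis for Krt19, Nes and marker genes of cell types in each library (blue, Smyd2 fl/fl; red, Smyd2 SMC-/-; marker shape by replicate). In Krt19, Nes, Acta2, Dpt, Cd34, Pdgfra and Pcna each knockout library is below each control, which held for 15% of all tested genes. Msln, Upk3b and Cdh1 are lowest in replicate 1 of each genotype. Pi16 and Ly6a, the fibroblast markers with overlapping groups, are not plotted.

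All 3 lamin genes had lower means in Smyd2 SMC-/- and none was called. Lmna (NCBI Gene 16905), listed with 5 transcripts so that lamin A and lamin C cannot be told apart, had 139, 121 and 118 FPKM in the controls and 117, 104 and 89.3 FPKM in the knockouts. The knockouts were below the controls by a small margin, since the lowest control and the highest knockout were close. The log2 difference was −0.29 (standard error 0.146, 95% interval −0.64 to 0.06, adjusted p = 0.330 in limma), or −0.16 after TPM rescaling. Lmnb1 (NCBI Gene 16906), the B-type lamin that is known to be lost from senescent cells, had 18.0, 16.7 and 16.6 FPKM in the controls and 14.1, 15.3 and 12.3 FPKM in the knockouts. Its groups also did not overlap, and the log2 difference was −0.28 (standard error 0.131, 95% interval −0.59 to 0.03, adjusted p = 0.293 in limma), or −0.17 after TPM rescaling.

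Lmnb2 (NCBI Gene 16907), which encodes the other B-type lamin, had the largest lamin difference. It read 9.72, 7.06 and 6.78 FPKM in the controls and 6.47, 4.26 and 3.70 FPKM in the knockouts. Replicate 1 was the highest library of each genotype, and knockout replicate 1 was only just below the lowest control. The mean was 7.85 ± 1.62 FPKM (SD, n = 3) in the control and 4.81 ± 1.47 FPKM (SD, n = 3) in the knockout, or 61.3% of the control. The log2 difference of −0.62 (standard error 0.230) had an adjusted p of 0.204 in limma and was called once the replicate number was taken as a block (standard error 0.120, adjusted p = 0.0419). It was also called with replicate 1 blocked against the others (0.0146) and in replicates 2 and 3 alone (0.00707), and the largest adjusted p over all alternatives was 0.504.

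Dividing cells, in which nestin and B-type lamins are known to be prominent, were read by 8 markers. All 8 had negative differences with a median of −0.56, 0 were called in limma (4 lower and 0 higher if p under 0.05 is taken unadjusted, against 11.2% of all tested genes lower), and 1 was lower with the replicate block (5.72% of all tested genes), Cdk1, named after its values were seen. Their sum was 251, 197 and 205 FPKM in the controls and 164, 174 and 112 FPKM in the knockouts, with Pcna the most abundant, and the sums did not overlap. For 5 of the 8 each knockout library was below each control, against 15% of all tested genes. For Mki67, Ccnb1 and Ccna2 the groups overlapped. The part of cell division in the lower lamin and Nes levels was not tested.

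The make-up of the lamin transcripts was compared next. Together the 3 genes had 167, 144 and 141 FPKM in the controls and 137, 124 and 105 FPKM in the knockouts. Lmna gave 83.4% to 83.6% of this in the controls and 84.2% to 85.0% in the knockouts. The ratio of Lmna to Lmnb1 plus Lmnb2 was 5.03, 5.09 and 5.04 in the controls, which was nearly constant, and 5.67, 5.31 and 5.58 in the knockouts. Each knockout library thus had a higher ratio than each control. Multiplying a whole library by 1 factor, as in TPM rescaling, leaves the ratio unchanged, and it was not computed after quantile normalization. The share of Lmnb2 was 5.17 ± 0.565% (SD, n = 3) in the control and 3.89 ± 0.713% (SD, n = 3) in the knockout, and its highest knockout library, at 4.71%, was just below the lowest control, at 4.81%. The share of Lmnb1 overlapped between genotypes.

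Among the 7 cytoplasmic genes, Vim made up nearly the whole pool. It gave 96.4%, 96.4% and 96.7% of their summed FPKM in the controls and 99.3%, 98.4% and 99.1% in the knockouts. Vim's share was thus higher in each knockout library although its level was lower. Krt19 accounted for 2.64%, 3.21% and 2.90% of the sum in the controls and 0.611%, 1.45% and 0.717% in the knockouts. The sum itself was 1826 ± 42.8 FPKM (SD, n = 3) in the control and 1343 ± 133 FPKM (SD, n = 3) in the knockout, and the groups did not overlap.

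**Figure D4:**
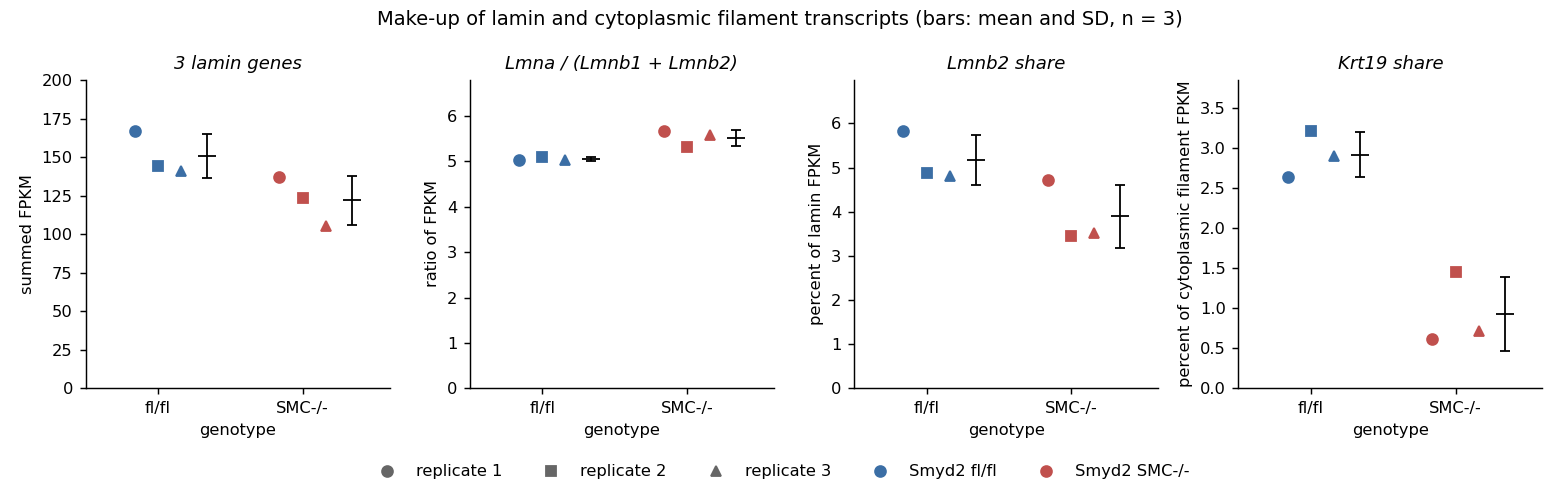
Summed FPKM of the 3 lamin genes, the ratio of Lmna to the B-type lamin genes, the share of Lmnb2 in lamin FPKM and the share of Krt19 in the FPKM of the 7 cytoplasmic genes, for each library with mean and SD (black bars, n = 3). The ratio lies between 5.03 and 5.09 in the 3 control libraries and between 5.31 and 5.67 in the 3 knockout libraries.

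Other intermediate filament genes were mostly silent in these cells. Of 20 listed, from neuronal and glial filaments to skin keratins and lens filaments, 15 were in the table and 3 were tested, with 0 called in limma, 0 with the replicate block and 0 at an unadjusted p under 0.05. The median difference of the 3 was −0.13, against −0.02 for all tested genes. Krt80 was the most abundant at 9.05 ± 3.86 FPKM (SD, n = 3) in the control and 5.90 ± 0.782 FPKM (SD, n = 3) in the knockout. Of the 3 differences 2 were negative and 1 positive, and the largest was that of Sync, which encodes syncoilin, at 0.33, 0.52 and 0.69 FPKM in the controls and 0.48, 3.02 and 1.86 FPKM in the knockouts (log2 difference 0.77, adjusted p = 0.303), with overlapping groups. In 11 of the 15 the level was below 0.5 FPKM in all 6 libraries.

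Partners and processing enzymes of the lamins were all expressed. Of 20 such genes, all 20 were tested, 1 was called lower and 0 higher in limma, with 6 lower and 3 higher if p under 0.05 is taken unadjusted and a median of −0.21. The shares of all tested genes were 1.21% lower and 1.23% higher in limma and 11.2% and 9.16% unadjusted. The list had 13 negative and 7 positive differences. After TPM rescaling 11 were negative and the median was −0.0954. Banf1, which encodes the barrier-to-autointegration factor that joins DNA to lamin-bound membrane proteins, was the one called. It read 133, 115 and 110 FPKM in the controls and 69.9, 61.3 and 46.5 FPKM in the knockouts. All 3 knockout libraries were well below the controls, and the log2 difference was −1.01 (standard error 0.179, adjusted p = 0.0446). The call was lost after TPM rescaling (adjusted p = 0.0599), with no filter on low FPKM (0.0667), and without control replicate 1 (0.0842), control replicate 2 (0.170), control replicate 3 (0.166), knockout replicate 2 (0.157) or knockout replicate 3 (0.159). With the replicate block 5 genes were called lower and 1 higher (5.72% and 4.72% of all tested genes), and these were named after their values were seen. The lower ones were Banf1, Tmpo and Nrm, which encode a DNA bridge and inner nuclear membrane proteins, Syne1, which encodes a nesprin that ties the nucleus to actin, and Rce1, which encodes the protease that trims farnesylated proteins such as prelamin A. The higher one was Syne2, another nesprin, at 3.89 ± 1.27 FPKM (SD, n = 3) in the control and 8.74 ± 2.85 FPKM (SD, n = 3) in the knockout.

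Proteins that tie filaments to junctions and to each other showed no common direction. Of 16 cytolinkers, desmosomal plaque proteins and filament chaperones, 11 were tested, 1 was called lower and 0 higher in limma, with 2 lower and 1 higher if p under 0.05 is taken unadjusted and 3 lower and 1 higher with the replicate block. Of all tested genes 1.21% were lower and 1.23% higher in limma, 11.2% and 9.16% unadjusted, and 5.72% and 4.72% with the block. The median difference of the list was −0.0004, or 0.12 after TPM rescaling. Pkp2, a plakophilin of the desmosomal plaque, was the one called, with 6.50, 4.38 and 4.17 FPKM in the controls and 1.84, 1.67 and 1.64 FPKM in the knockouts. The knockout libraries were close together and below all controls, with a log2 difference of −1.13 (standard error 0.194, adjusted p = 0.0425). The call was lost after TPM rescaling (adjusted p = 0.0525), with no filter on low FPKM (0.0573), and without control replicate 2 (0.153), control replicate 3 (0.143), knockout replicate 2 (0.157) or knockout replicate 3 (0.188). With the replicate block Ppl, Jup and Pkp2 were called lower and Pkp4, another plakophilin gene, higher. Pkp4 was at 19.4, 18.1 and 18.5 FPKM in the controls and at 26.9, 36.2 and 38.5 FPKM in the knockouts, above all controls in each knockout library (log2 difference 0.81, adjusted p = 0.0585 in limma and 0.0376 with the block). Plectin (Plec), the cytolinker that binds vimentin, had 51.4 ± 13.8 FPKM (SD, n = 3) in the control and 39.1 ± 7.96 FPKM (SD, n = 3) in the knockout, and the small heat shock protein gene Cryab, a chaperone of desmin and vimentin, had 785, 311 and 296 FPKM in the controls and 437, 419 and 394 FPKM in the knockouts, so that replicate 1 was lower in the knockout and replicates 2 and 3 higher. Both had overlapping groups and were not called. Ppl, Jup, Pkp4, Plec and Cryab were named after their values were seen.

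**Figure D5:**
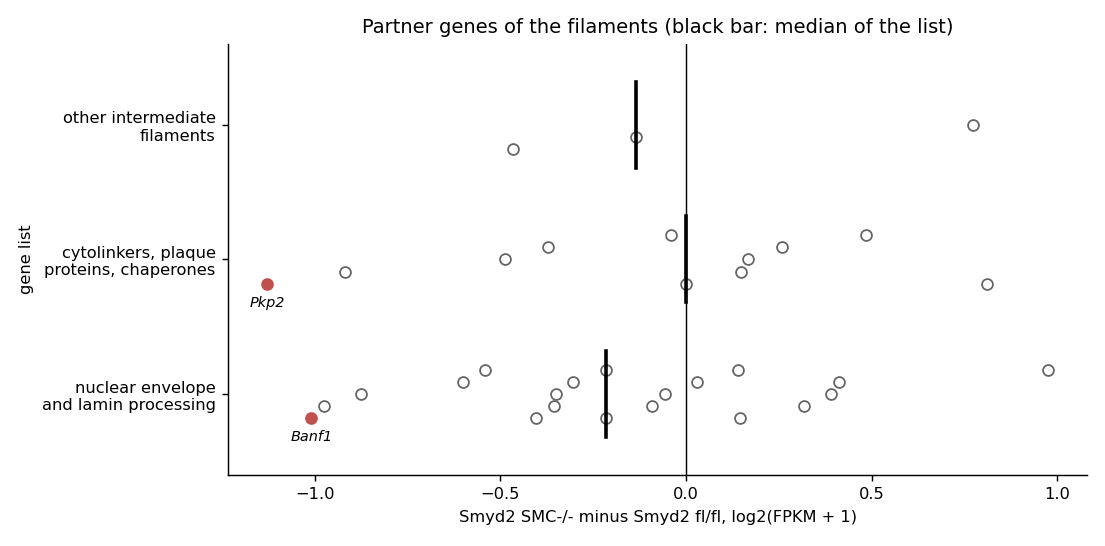
Difference between genotypes on the log2(FPKM + 1) scale for the tested genes of 3 lists, filled where limma's adjusted p was under 0.05, with the median of each list as a black bar. Banf1 and Pkp2 are the only filled points, and the medians are −0.21, −0.0004 and −0.13 from the bottom list to the top.

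The genes whose pattern over the 6 libraries was most like that of Krt19, among 11165 genes with a symbol and a mean of at least 1 FPKM, were Rpl29 (Pearson's r = 0.991 of log2(FPKM + 1)), Cmpk1 (0.990) and BC028528 (0.990), and 79 genes had an r above 0.95. Rpl29, a ribosomal protein gene, went from a mean of 633 to 518 FPKM, and Cmpk1, a nucleotide kinase gene, from 28.1 to 20.5 FPKM. For Vim they were Toe1 (r = 0.991), Naf1 (0.990) and Rce1 (0.990), the last of which is also among the lamin processing genes, with 53 genes above 0.95. Toe1, a deadenylase gene, went from a mean of 5.35 to 4.31 FPKM, and Naf1, an assembly factor gene of small nucleolar ribonucleoproteins, from 20.5 to 13.2 FPKM. The 6 libraries share their 2 genotypes, so these correlations are descriptions.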

How the data were processed

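The authors sequenced poly-A RNA of the 6 VSMC libraries on the BGISEQ-500 with paired ends, filtered reads with SOAPnuke, used HISAT and Bowtie2 for mapping and RSEM for expression (versions and genome build not given in the sources used here), and deposited FPKM for 18112 genes, 1125 of them without a symbol. FPKM are not counts, so log2(FPKM + 1) was, for the 12565 genes averaging 0.5 FPKM or more, compared between 3 and 3 libraries with limma 3.58.1 in R 4.3.3 (eBayes with trend and robust), with Benjamini-Hochberg adjustment over all of them. In simulated data with a log2 change of 2 in 200 genes, the procedure found 163 of them and made 10 false calls. The simulated noise was independent between libraries, so it held no deviation shared by replicates. Replicate 1 of both genotypes deviated from its group mean together (r = 0.615 across genes). Replicates 2 and 3 did so with either number (r = 0.46 and 0.527 for the same number, 0.439 and 0.461 for the other), so their pairing by number rests on the labels. A second fit took replicate numbers as blocks. Genes named by a rule are the 10 genes, Smyd2, called genes of the partner lists (up to 5 each by size of difference) and the 3 genes most correlated with Krt19 and with Vim, and all other genes named were picked after their values were seen. The genes and lists were chosen with earlier results of these data known.

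Alternatives were the replicate block, a block for replicate 1, replicates 2 and 3 alone, another pseudocount (0.1), dropping the filter on low FPKM, TPM rescaling, quantile normalization, each library left out, and the cutoffs of the study's methods. Depth estimates are approximate: 71.5% to 73.8% of the low values used came within 0.15 of whole fragments, against 30% by chance. Transcript lengths came from GENCODE through RefSeq names. Promoter windows are from RefSeq. Python 3.11.15, numpy 2.4.6, pandas 2.3.3, scipy 1.17.1 and matplotlib 3.10.9 were used.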

Additional observations from a re-analysis of the deposited data

How the results depend on the processing

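The 6 tested genes kept a negative difference in all 13 alternatives, and none of the 10 genes was called higher in any. The number of the 10 genes called, 2 with the main settings, was 4 in replicates 2 and 3 alone (Krt18 among them, which passed the filter only through the controls), 0 with no filter on low FPKM (5 at an unadjusted p under 0.05 in limma), 0 at the methods' cutoffs (fold change 2, adjusted p 0.01) (4 at an unadjusted p under 0.05), and 0 to 1 with each library left out. Of all tested genes 306 were called, 152 lower and 154 higher, or 99 lower and 247 higher after TPM rescaling. This number was 1312 with the replicate block, 2550 with replicate 1 blocked against the others, 3667 in replicates 2 and 3 alone, 53 at the methods' cutoffs, and 34 to 682 with each library left out. The cause of these shifts was not tested. The replicate block changed the calls of Lmnb2 and Smyd2 and no other call among the 10 genes and Smyd2. Des, Krt8 and Synm, with at most about 70 fragments in a library, were tested only with no filter on low FPKM and were not called there (adjusted p = 0.534, 0.922 and 0.650).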

Other observations

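Markers of endothelium, macrophages, Schwann cells and skeletal muscle were read as well. The unadjusted counts below stand against 9.16% of all tested genes higher and 11.2% lower at an unadjusted p under 0.05 in limma. Of 6 endothelial markers only Kdr was tested and it was not called (1 higher at an unadjusted p under 0.05 in limma), although it read 0.47, 0.58 and 0.84 FPKM in the controls and 0.96, 5.15 and 2.96 FPKM in the knockouts, with groups that did not overlap. Pecam1, an adhesion molecule gene of endothelium, went the other way, at 0.56, 0.88 and 0.92 FPKM in the controls and 0.12, 0.18 and 0 FPKM in the knockouts, again with no overlap, and its mean was below the 0.5 FPKM needed for the test. Cdh5 and Tie1, which define endothelium, were at 0 to 0.01 FPKM in all 6 libraries. Of 5 macrophage markers 2 were tested and 0 called (0 lower and 1 higher if p under 0.05 is taken unadjusted). Csf1r, the receptor of the macrophage growth factor, read 0.58, 0.53 and 0.48 FPKM in the controls and 1.66, 1.42 and 1.14 FPKM in the knockouts. Cd68, the other one tested and the most abundant, had means of 3.84 FPKM in the control and 3.87 FPKM in the knockout with overlapping groups, while Ptprc, Adgre1 and Itgam did not exceed 0.02 FPKM. Of 4 Schwann cell markers 2 were tested and 0 called (0 lower and 1 higher if p under 0.05 is taken unadjusted). S100b read 0.34, 1.38 and 1.02 FPKM in the controls and 0.98, 12.7 and 7.40 FPKM in the knockouts, with overlapping groups, and Sox10, which defines Schwann cells, did not exceed 0.02 FPKM. Of 4 skeletal muscle markers 2 were in the table and neither was tested, with a sum of at most 0.42 FPKM.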
